A study of Homo sapiens with 32 samples.

Results

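Potassium channel genes are described here as a set of 95 among the 19974 that RefSeq lists as protein-coding on GRCh38, chosen by a gene symbol that starts with KCN, followed by letters and a number. The set was divided by the kind of subunit into 40 voltage-gated, 16 inward rectifier, 15 two-pore and 8 calcium- or sodium-activated channel genes and 16 genes for auxiliary subunits. For each gene, the measurement was the percent of its span, with 2.5 kb added on each side, that lay in islands (called regions of enrichment) of H3K27me3, the trimethylated lysine 27 of histone H3. The cells were MDA-MB-231, an established line of triple-negative breast cancer, which lacks oestrogen receptor, progesterone receptor and HER2 amplification. Chromatin was profiled by ChIPmentation, a form of ChIP-seq in which the sequencing adapters are inserted by a transposase while the chromatin is on the beads. The 4 groups were untreated control cells, cells given the EZH2 inhibitor labelled EPZ (EP7 in the sample titles), cells given the p38 MAP kinase inhibitor labelled P38i, and cells given EPZ and P38i together, labelled combo. Treatment lasted 24 h, and each group had 4 H3K27me3 libraries. A matching set of 16 IgG libraries was not analysed here. The labels do not say that replicates came from separate cultures, so p-values measure the spread between these libraries, which may be technical.

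Potassium channels let potassium ions leave or enter the cell along their gradient, and so set the resting potential, end action potentials and affect cell volume and proliferation. Voltage-gated channels open on depolarisation, inward rectifiers pass current more easily into the cell, two-pore channels carry background leak current, and calcium- or sodium-activated channels couple potassium flow to the ions inside the cell. H3K27me3 is written by Polycomb repressive complex 2, whose catalytic subunit is EZH2, and marks genes that are kept silent, many of them specific to other tissues such as brain, heart and muscle, where most of these channels act. An island shows where the mark was called and gives no amount of mark and no expression.

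The sequence of the gene start is shown for 4 channel genes whose starts bracket what was seen. It is the 200 bases before the RefSeq start (GRCh38.p14) at the upstream end of the gene. Bases run 5′ to 3′ on the gene's strand, with each CG dinucleotide in capitals. KCNA2 (chr1:110631441-110631640, minus strand) had an almost fully covered start with only 2 CG, and KCNK5 (chr6:39229476-39229675, minus strand) had an almost fully covered start with 25 CG. KCNMA1 (chr10:77637809-77638008, minus strand, 33 CG) and KCNK2 (chr1:215005342-215005541, plus strand, 2 CG) had no island within 2.5 kb of that start in any library, although islands lay further inside both genes.
KCNA2: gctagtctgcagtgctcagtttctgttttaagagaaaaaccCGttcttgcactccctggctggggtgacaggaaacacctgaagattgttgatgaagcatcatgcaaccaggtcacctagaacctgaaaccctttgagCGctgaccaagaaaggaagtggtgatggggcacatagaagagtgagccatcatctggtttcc
KCNK5: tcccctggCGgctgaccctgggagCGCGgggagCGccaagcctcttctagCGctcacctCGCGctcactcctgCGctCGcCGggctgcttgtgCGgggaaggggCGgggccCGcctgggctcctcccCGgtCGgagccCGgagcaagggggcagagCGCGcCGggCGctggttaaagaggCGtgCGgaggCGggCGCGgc
KCNMA1: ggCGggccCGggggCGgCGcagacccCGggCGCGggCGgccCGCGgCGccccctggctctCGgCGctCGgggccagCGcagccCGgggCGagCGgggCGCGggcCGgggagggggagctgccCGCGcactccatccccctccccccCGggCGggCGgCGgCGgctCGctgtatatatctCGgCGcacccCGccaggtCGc
KCNK2: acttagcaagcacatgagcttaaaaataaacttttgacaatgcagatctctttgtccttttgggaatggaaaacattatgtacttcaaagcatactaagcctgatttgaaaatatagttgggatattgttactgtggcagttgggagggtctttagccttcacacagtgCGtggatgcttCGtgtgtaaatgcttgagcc

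Over the 16 libraries, the lists held 53290 to 85194 islands that covered 474 to 674 Mb, and the read depth is unknown. Mean covered length differed between the groups: it was 589 ± 78.0 Mb in control, 527 ± 56.4 Mb in EPZ, 620 ± 61.4 Mb in P38i and 565 ± 43.2 Mb in combo (SD, n = 4 each). The ranges overlapped, with 484 to 669 Mb in control, 474 to 587 in EPZ, 533 to 674 in P38i and 526 to 615 in combo. All 8 mesenchymal genes checked, among them VIM and ZEB1, and all 6 housekeeping genes had no island in any library. Of 9 luminal genes 6 had none, of 5 haematopoietic genes 3, of 4 hepatocyte genes 1, and of 5 neuronal genes 2. The summed coverage of the luminal list lay between 140 and 192 percentage points over the libraries, that of the haematopoietic list between 45.0 and 153, that of the hepatocyte list between 89.6 and 215, and that of the neuronal list between 50.7 and 127.

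Most potassium channel genes had islands, which most protein-coding genes had not. Of the 95, 36 (37.9%) had no island in any library, against 13584 of all 19974 genes (68.0%). A mean coverage of at least 50% was found for 32 channel genes (33.7%) and for 2108 of all genes (10.6%), and 21 channel genes (22.1%), against 1333 of all genes (6.67%), were at least 50% covered in each of the 16 libraries. Channel genes are longer, with a median of 40.5 kb against 24.2 kb, but the shares differed within each class of length too. Below 20 kb, 9 of 35 channel genes (25.7%) were at least 50% covered, against 10.7% of all genes. From 20 to 100 kb the share was 9 of 30 (30%) against 8.17%, and above 100 kb it was 14 of 30 (46.7%) against 15.5%. High coverage was not particular to potassium channel genes. Of 23 genes for other voltage-gated cation channels, 9 were at least 50% covered and 6 had no island. Of 10 genes for partner proteins of potassium channels, 4 were at least 50% covered and 3 had no island. All these shares are descriptions and carry no test.

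**Figure D1:**
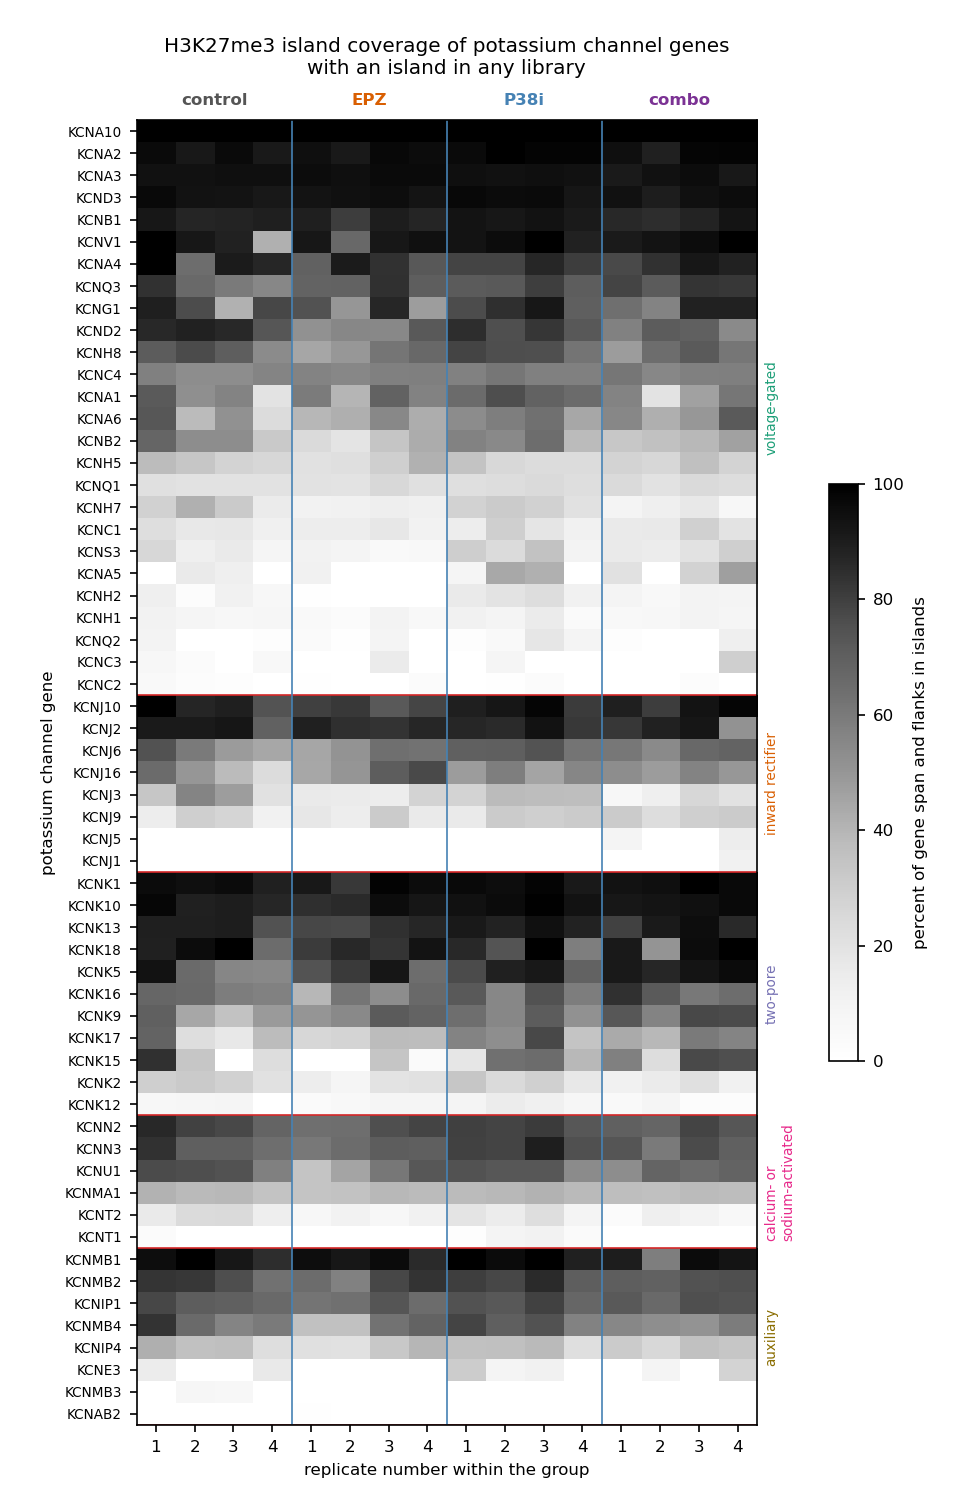
Percent of each gene and its 2.5 kb flanks covered by H3K27me3 islands, for the 59 potassium channel genes with an island in at least 1 library (rows, by class and then by mean) in the 16 libraries (columns, by group and replicate number). White is 0 and black is 100%. The upper rows of each class are dark in every column, and the lower rows are near white, with differences between groups mainly in the rows between.

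Among voltage-gated channels, which form the pore that repolarises nerve and muscle, 14 of 40 were at least 50% covered and 14 had no island. In the Shaker family 6 of 8 genes were at least 50% covered. KCNA10 was covered over 100% of its window in every library, KCNA2 over 95.4% ± 3.15 (SD over 16 libraries), and KCNA3, the Kv1.3 channel best known from T cells, over 94.3% ± 1.41. These 3 genes lie next to each other on chromosome 1, with gaps of 74.4 and 22.1 kb. KCND3, which carries the transient outward current of the heart, was covered over 94.1% ± 1.98. Among the 8 genes of the ether-a-go-go family, 1 was at least 50% covered. KCNH1, a channel studied in tumours for its effect on proliferation, was covered over 7.8% ± 3.09. KCNQ1, the slow repolarising channel of the heart, was covered over 21.8% ± 2.00, with a range of 19.4 to 25.2% over the libraries.

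Of the 16 inward rectifiers, 4 were at or above 50% and 8 had no island. The highest were KCNJ10 at 86.6% ± 8.54, a glial channel that buffers potassium, KCNJ2 at 84.3% ± 10.6, which holds the resting potential of muscle, KCNJ6 at 60.9% ± 9.86 and KCNJ16 at 52.1% ± 12.7. KCNJ12 and KCNJ18 had no island, but they are near-identical copies, and reads from them may not be placed uniquely. Of the 15 two-pore channels, 7 were at or above 50% and 4 had no island (KCNK3, KCNK4, KCNK6 and KCNK7). KCNK1 was covered over 94.3% ± 4.40, KCNK10 over 92.5% ± 4.27, KCNK13 over 86.4% ± 6.12 and KCNK18, a channel of sensory neurons, over 84.3% ± 15.1.

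Of the 8 calcium- or sodium-activated channels, 3 were at least 50% covered and 2 had no island. The small-conductance channels KCNN2 and KCNN3 were covered over 74.7% ± 6.56 and 72.2% ± 8.13, and KCNU1, a channel of sperm, over 64.1% ± 12.4. KCNU1 was placed in this class by its gene symbol and not by what opens the channel. KCNMA1, the large-conductance BK channel, was covered over 37.7% ± 1.97. KCNN4, the intermediate-conductance channel of blood and epithelial cells, had no island in any library. Among auxiliary subunits 4 of 16 were at or above 50% and 8 had no island. Of the 4 beta subunits of BK channels, KCNMB1 was at 91.4% ± 9.96, KCNMB2 at 74.5% ± 8.08 and KCNMB4 at 60.4% ± 13.4. The remaining one, KCNMB3, was at 0.869%, with islands in 2 of 16 libraries. The Kv4 partner KCNIP1 stood at 70.6% ± 5.28. KCNMB1 lies inside the span of KCNIP1, so their values are not separate. None of the 3 Kv beta subunits was at least 50% covered, and 4 of the 5 MinK-related genes had no island.

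Neighbouring channel genes did not always have similar coverage. Of the 95 genes, 19 fell into 8 runs in which each gene lay within 200 kb of the next, and 7 runs had islands. KCNJ10 at 86.6% and KCNJ9 at 23.8% lie 11.4 kb apart on chromosome 1, and KCNJ16 at 52.1% and KCNJ2 at 84.3% lie 33.9 kb apart on chromosome 17. On chromosome 12, KCNA6 and KCNA1 were covered over 50.2% and 55.2%, and KCNA5, 126 kb further on, over 14.3%. On chromosome 6, KCNK5, KCNK17 and KCNK16 stood at 79.7, 43.2 and 63.2%. KCNJ1 and KCNJ5 on chromosome 11 had 0.693 and 1.44%. Windows of genes closer than 5 kb overlap, as those of KCNK17 and KCNK16 do.

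The strand was given for 71 of the 95 genes, which allowed a window of 2.5 kb on each side of the gene start to be read. The gene start is here the upstream end of the gene span, and starts listed in RefSeq can lie elsewhere. In it, 16 genes were at least 50% covered on average, 17 were covered above 0 and under 50%, and 38 had no island in any library. In 5 genes (chosen after their values were seen) the start had no island in any library while at least 5% of the whole window was covered: KCNC4 at 57.1%, KCNMA1 at 37.7%, KCNK2 at 20.9%, KCNC1 at 17.3% and KCNH1 at 7.8%. For KCNMA1, both starts listed in RefSeq were free of islands. KCNK2 has a second listed start 77.2 kb inside the gene, which was covered over 30.8% (range 0 to 80.0%). The reverse, a start more covered than the gene, was seen for 12 of the 71 genes. The 4 with the widest gaps, named after their values were seen, were KCNK16 (90.3% at the start and 63.2% over the gene), KCNS3 (42.3 and 16.9%), KCNMB2 (99.0 and 74.5%) and KCNIP1 (93.5 and 70.6%). KCNIP1 has a second listed start 151 kb inside, which was covered over only 14.6% (range 0 to 42.4%). The second listed starts of KCNK16 and KCNS3 were covered over 90.7 and 43.2%. The gap between start and gene was smaller for KCNK5, with 95.6% at its start (range 84.0 to 100%) and 79.7% over the gene. KCNN2, also among the 12, had 89.7% at its upstream end and 74.7% over the gene. Its only start listed in RefSeq lay 306 kb inside and was covered over 38.8%, below the gene. The start of KCNA2, whose sequence is given above, was covered over 99.0%. A second listed start of KCNA2, 25.1 kb inside, was covered over 77.5% (range 44.0 to 100%).

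**Figure D2:**
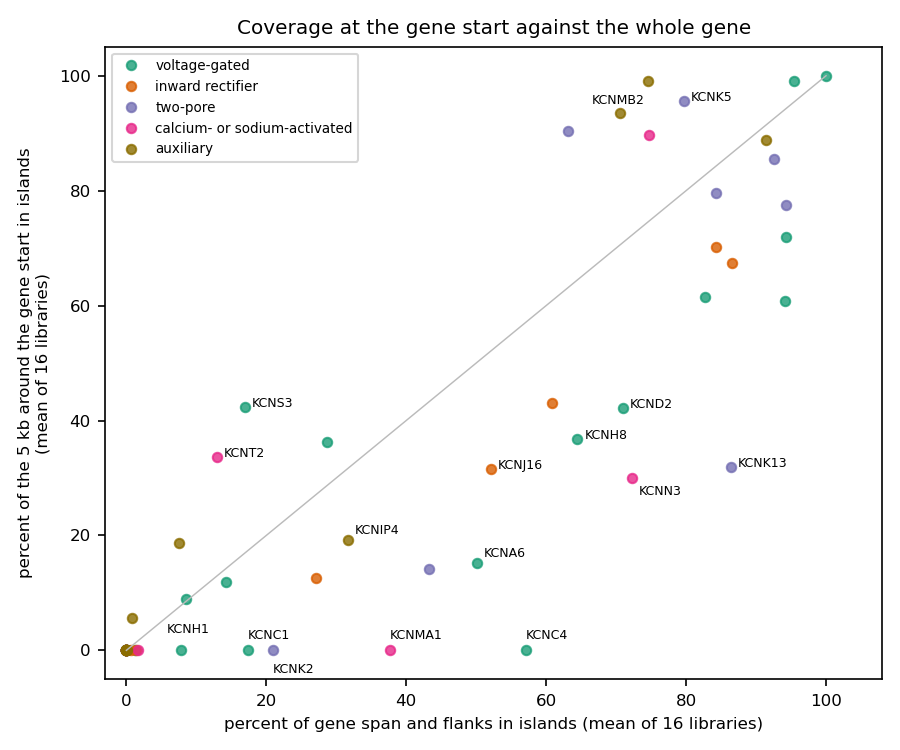
Mean coverage over 16 libraries of the 5 kb around the gene start (vertical axis) against that of the whole gene with its flanks (horizontal axis), both in percent, for the 71 potassium channel genes with a strand. The diagonal marks equal coverage. KCNC4, KCNMA1, KCNK2, KCNC1 and KCNH1 lie on the lower edge with 0 at their start, and 12 genes, KCNK5 and KCNMB2 among them, lie above the diagonal.

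The letters CG were counted in the 300 bases from 250 before to 50 after a listed start. For each gene 1 start was used, the one listed nearest its upstream end. The count was divided by the number that the C and G content gives (observed over expected). All 71 channel promoters hold a CG, as do 98.1% of 15813 promoters of all genes. The median ratio was 0.762 over all promoters and 0.630 over channel promoters. Across all genes it was 0.269 for the 1489 promoters with a start at least 50% covered and 0.798 for the 12059 with no island at the start. Over channel promoters the medians were 0.635 for 16 covered starts and 0.589 for 38 free starts. In all these splits coverage was read at the upstream end of the gene, which can lie away from the start whose CG were counted. KCNN2 was among the covered starts, but its listed start lay 306 kb inside and was covered over 38.8%. The 5 genes with islands away from a free start had a median of 0.918, and their values ranged from 0.381 for KCNK2 to 0.983 among the others. The printed sequences show this spread: KCNK5 and KCNMA1 are both rich in CG, and KCNA2 and KCNK2 are both poor in it.

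The response to the EZH2 inhibitor was read first as a main effect, the 8 libraries with EPZ (EPZ and combo) against the 8 without it (control and P38i). Coverage fell in 7 of the 49 channel genes tested (14.3%) and rose in none, at an adjusted p under 0.05 (limma over 4105 genes, Benjamini-Hochberg). Of all tested genes 15.6% fell and 0.877% rose, so the share of channel genes that fell was near the background. The 7 were 4 voltage-gated channels (KCND2, KCNH7, KCNH2 and KCNB2), the inward rectifier KCNJ3, the sodium-activated KCNT2 and the two-pore KCNK2. The median difference was -3.37 percentage points for channel genes and -4.84 for all tested genes, and with the covered length of each library as a covariate these medians became 0.464 and -1.21. In that fit 3 channel genes fell (KCND2, KCNH7 and KCNH2) and 2 rose (KCNK9 and KCNQ3), against 260 that fell and 127 that rose of all 4105 genes. Covered length is summed over the same islands, and its group means differed although the groups overlapped, so it cannot be taken as independent of treatment. Neither the difference in covered length between groups nor its cause was tested. Genes entered the test when their mean coverage lay between 5 and 95%, which left out 44 channel genes below and 2 above (KCNA2 and KCNA10).

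KCND2 (chr7:120272908-120750337) encodes Kv4.2, a pore subunit of the transient outward current in neurons and heart. Its coverage in control replicates 1 to 4 was 86.7, 88.6, 86.7 and 73.1%, and in P38i 84.8, 75.7, 82.8 and 72.6%. In EPZ it was 51.7, 55.2, 54.9 and 71.9%, and in combo 57.0, 70.8, 69.2 and 54.0%. All 8 libraries with the EZH2 inhibitor lay below all 8 without it, the only channel gene of which this was true (1.58% of all tested genes were separated this way). The difference was -20.8 ± 3.98 percentage points (SE, limma, adjusted p = 0.00474). The number of islands over the gene was 33.1 ± 13.6 without the inhibitor and 42.8 ± 8.51 with it (SD, n = 8), while the longest island was 52.5 ± 22.8 kb and 29.4 ± 12.3 kb.

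KCNH7 (chr2:162371407-162838767) encodes Kv11.3, a neuronal relative of the cardiac HERG channel. Control libraries were at 28.5, 41.7, 31.3 and 15.2%, and P38i libraries at 28.0, 31.2, 28.2 and 20.3%. EPZ libraries were at 10.5, 11.1, 13.6 and 12.5%, and combo libraries at 9.19, 13.0, 16.6 and 6.61%. Control replicate 4 was the only library without the inhibitor that lay within the range of those with it. The difference was -16.4 ± 3.29 percentage points (SE, limma, adjusted p = 0.00563), and the number of islands was 24.1 ± 5.59 without and 13.0 ± 2.45 with the inhibitor (SD, n = 8).

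KCNH2 (chr7:150944961-150978321) encodes HERG, the rapid repolarising channel of the heart, which is also studied in tumour cells. Control libraries were at 12.5, 2.66, 11.5 and 6.78%, and the EPZ libraries at 1.10, 0, 0 and 0%. P38i libraries were at 15.7, 19.3, 22.5 and 11.5%, and combo libraries at 8.86, 5.21, 9.96 and 8.86%. All EPZ libraries were thus below all control libraries, while the combo libraries lay inside the range of control. The main effect of the EZH2 inhibitor was -8.55 ± 1.89 percentage points (SE, limma, adjusted p = 0.00905).

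KCNJ3 (chr2:154698695-154858354) encodes Kir3.1, a channel opened by G proteins, and is among the channel genes studied in breast cancer. Its coverage was 33.3, 56.0, 47.3 and 20.6% in control and 27.6, 37.9, 37.2 and 37.0% in P38i. It was 15.5, 15.1, 14.3 and 27.7% in EPZ and 6.19, 13.1, 25.8 and 19.8% in combo. Control replicate 4 and P38i replicate 1 lay below EPZ replicate 4, the highest library with the inhibitor, and the other 6 without it lay above all 8. The difference was -19.9 ± 4.78 percentage points (SE, limma, adjusted p = 0.0138).

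KCNT2 (chr1:196225779-196608440), a sodium-activated channel, was at 15.5, 23.6, 24.5 and 13.6% in control and 19.0, 14.7, 21.9 and 8.98% in P38i. It was at 6.69, 10.8, 5.87 and 11.5% in EPZ and 3.49, 12.5, 9.70 and 5.56% in combo. Both groups with the inhibitor lay below the control group, and P38i replicate 4 overlapped them. The difference was -9.45 ± 2.46 percentage points (SE, limma, adjusted p = 0.0192).

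KCNK2 (chr1:215005542-215237090) encodes TREK-1, a leak channel opened by stretch and lipids. It was covered over 29.4, 31.4, 28.4 and 20.5% in control, 33.6, 24.6, 28.7 and 16.7% in P38i, 13.8, 8.37, 19.4 and 20.6% in EPZ and 11.1, 15.1, 21.3 and 11.1% in combo. Replicate 4 of control and of P38i overlapped the libraries with the inhibitor. The difference was -11.6 ± 3.04 percentage points (SE, limma, adjusted p = 0.0200).

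KCNB2 encodes Kv2.2, a delayed rectifier. It was covered over 67.4, 52.8, 53.0 and 31.8% in control, 56.9, 54.3, 64.5 and 38.3% in P38i, 24.2, 18.9, 33.6 and 42.8% in EPZ and 33.1, 35.2, 39.0 and 46.2% in combo. Control replicate 4 and P38i replicate 4 lay inside the range of the inhibitor libraries here too. The difference was -18.3 ± 5.40 percentage points (SE, limma, adjusted p = 0.0335), and the call was lost in 10 of the 16 fits that left out 1 library, with adjusted p up to 0.0735.

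**Figure D3:**
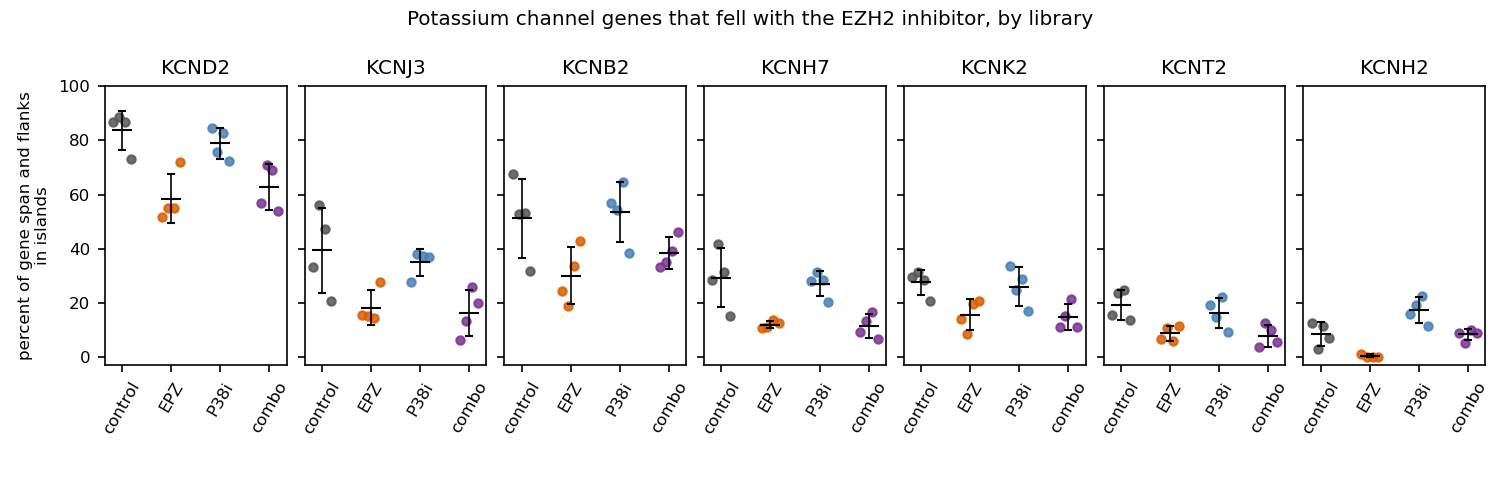
Percent of the gene and its flanks in islands for the 7 potassium channel genes that fell with the EZH2 inhibitor. Each point is 1 library (4 per group), and the bars give the mean ± SD. For KCND2 all EPZ and combo points lie below all control and P38i points, and for KCNH2 the EPZ points sit at 0 to 1.10%.

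The size of the fall was also read along these genes, which were picked because they fell. Each gene, without its flanks, was divided into 10 segments of equal length. Mean coverage with the inhibitor was set against that without it, as a description. The segments named were picked after their values were seen, and whether the fall was uneven beyond the spread between libraries was not tested. In KCND2 the largest falls were in the segment nearest the start, from 73.8 to 37.1%, and in the 7th, from 56.0 to 24.2%. That first segment is much longer than the 5 kb start window, where the difference was -14.5 percentage points (limma, adjusted p = 0.539). In the 5 kb around the listed KCND2 start, mean coverage was 34.9% in control, 17.9% in EPZ, 58.6% in P38i and 43.9% in combo. In KCNK2 they lay in the last 3 segments, with a fall from 51.1 to 7.77% in the 9th, and in KCNT2 in the last, from 71.0 to 41.0%. In KCNJ3 the largest was in the 4th, from 59.8 to 16.4%. Inside the gene, with flanks left out, KCNH2 had islands only in segments 2 to 4. Its 4th segment was covered over 46.0% in control, 0% in EPZ, 88.8% in P38i and 70.8% in combo. Islands were also called in the window at the KCNH2 start, which was covered over 8.42% in EPZ replicate 1. KCNB2 fell in all 10 segments, by 5.41 to 27.2 percentage points. In KCNH7, whose strand was not given, the segment at the lower coordinate fell from 42.6 to 6.53%.

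**Figure D4:**
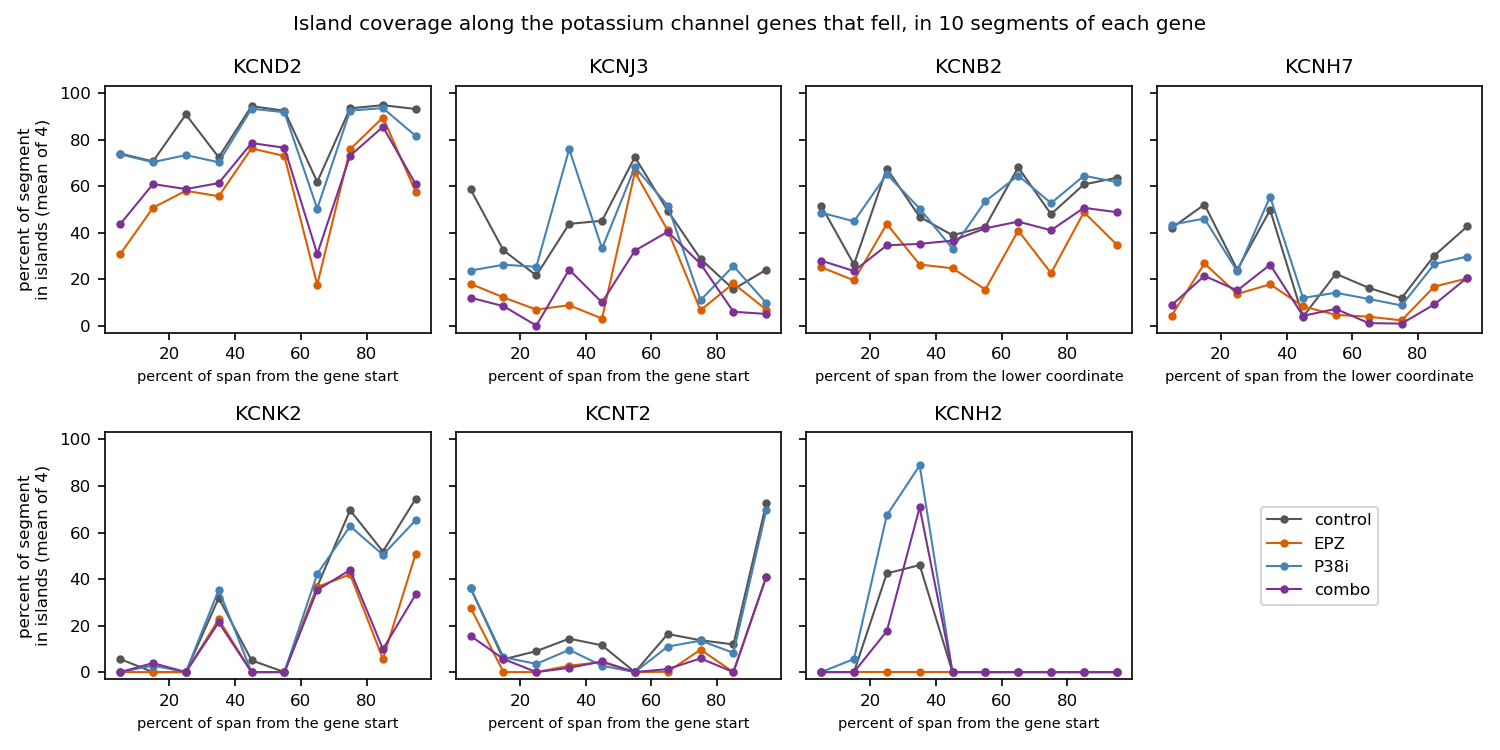
Mean coverage of 4 libraries per group (percent of each segment in islands) along the 7 genes, in 10 equal segments from the gene start, or from the lower coordinate for KCNB2 and KCNH7. The EPZ and combo lines run below the control and P38i lines over most of KCND2 and KCNB2, and at the far end of KCNK2 and KCNT2. Flanks are left out, and in KCNH2 only the EPZ line stays at 0.

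Among long genes the response was read against genes of like length. Above 100 kb, 6 of 24 tested channel genes (25%) fell, against 21.4% of all tested genes of that length. From 20 to 100 kb 1 of 12 fell, against 18.8%, and below 20 kb 0 of 13 fell, against 8.92%. By class, 4 of 21 tested voltage-gated genes fell, 1 of 6 inward rectifiers, 1 of 11 two-pore channels, 1 of 5 calcium- or sodium-activated channels and 0 of 6 auxiliary subunits. Of all tested genes 15.6% fell. The classes are small and were not tested against each other. KCNMB4, named after its values were seen, was the auxiliary gene with the largest difference, -15.7 ± 5.72 percentage points (SE, limma, adjusted p = 0.0733).

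Estimates above 0 by more than 0.001 percentage points were found for 9 of the 49 genes, and the largest were those of the two-pore channels KCNK9 and KCNK5. KCNK9 encodes TASK-3, a leak channel found amplified in some breast tumours. It was covered over 69.4, 44.2, 35.0 and 48.5% in control, 50.3, 54.6, 71.5 and 68.1% in EPZ, 64.1, 55.4, 70.7 and 51.6% in P38i and 72.8, 56.5, 77.4 and 76.9% in combo. The groups overlapped, and the main effect was 11.1 ± 5.41 percentage points (SE, limma, adjusted p = 0.171). With the covariate of covered length it was 18.3 ± 4.70 (SE, limma, adjusted p = 0.0300). KCNK5 encodes TASK-2 and was covered over 93.4, 65.9, 55.8 and 54.9% in control, 74.5, 81.3, 92.5 and 64.6% in EPZ, 76.9, 89.0, 91.6 and 68.6% in P38i and 91.4, 86.8, 92.6 and 96.0% in combo. Among controls, replicate 1 alone reached the range of combo, and the main effect was 10.5 ± 5.75 percentage points (SE, limma, adjusted p = 0.224). Without control replicate 1 it was 14.8 ± 4.504 and passed (limma, adjusted p = 0.0477), in a fit in which 48 of all 4105 genes rose. KCNQ3, named after its values were seen, had a main effect of 5.82 ± 4.101 (SE, limma, adjusted p = 0.346), and 11.5 ± 3.33 with the covariate (limma, adjusted p = 0.0472).

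**Figure D5:**
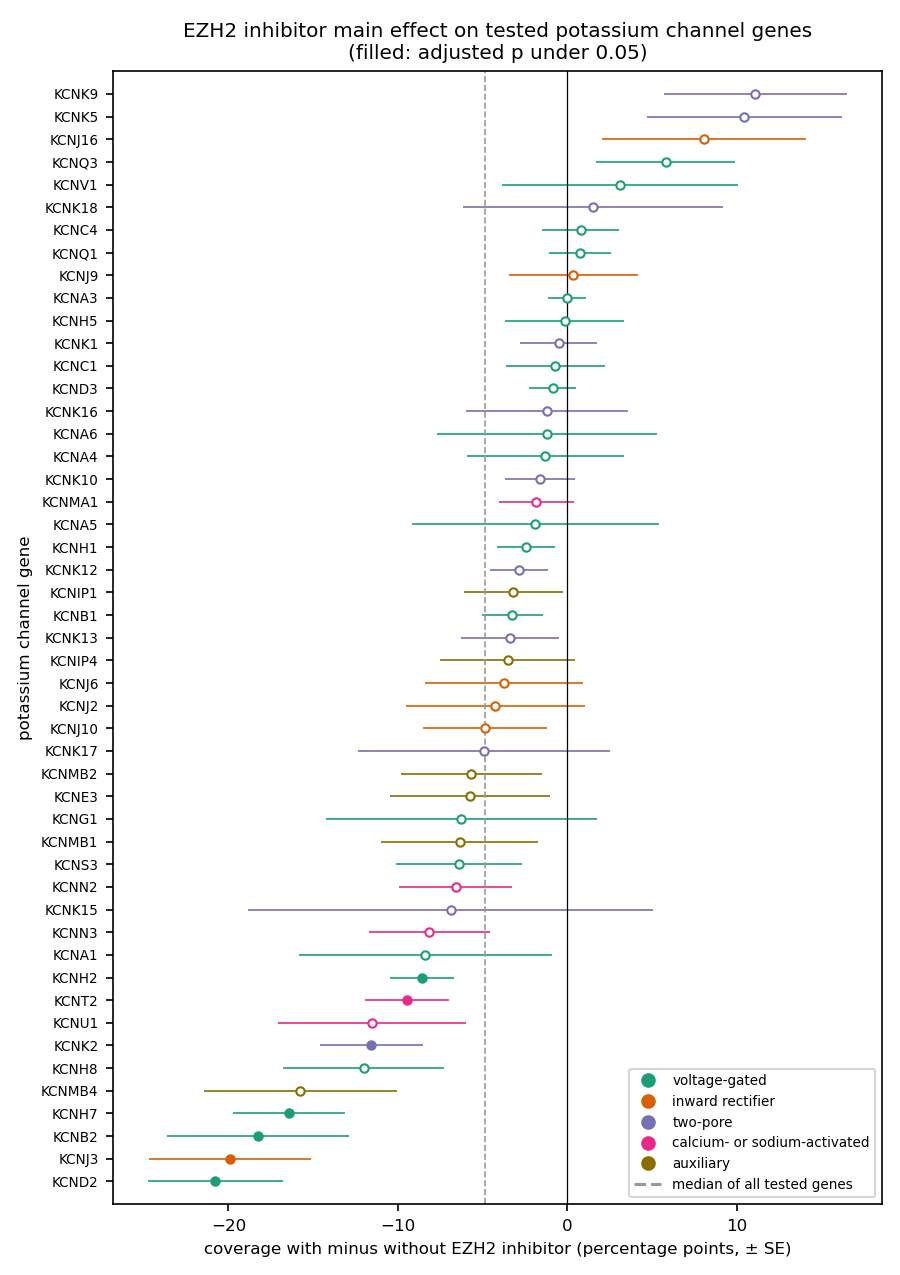
Difference in coverage with minus without the EZH2 inhibitor (percentage points, ± SE, 8 libraries a side) for the 49 tested potassium channel genes, coloured by class. Filled points had an adjusted p under 0.05, and the dashed line is the median of all 4105 tested genes, -4.84. The 7 filled points lie between -20.8 and -8.55, and no gene on the right side is filled.

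With EPZ alone against control, 1 of the 49 channel genes fell and none rose, where 3.05% of all tested genes fell and 0.122% rose. The gene was KCND2, with 58.4% ± 9.14 in EPZ and 83.8% ± 7.18 in control (SD, n = 4), a difference of -25.4 ± 5.63 percentage points (SE, limma, adjusted p = 0.0317). That call was lost when any of control replicates 1 to 3 or EPZ replicates 1 to 3 was left out (adjusted p up to 0.0984). An unadjusted p under 0.05 was reached by 8 channel genes (16.3%), against 20.9% of all. The 4 EPZ libraries did not overlap the 4 controls for KCND2, KCNH7, KCNH2 and KCNT2, and 8.40% of all tested genes were apart in this way.

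With combo against control, no channel gene passed, against 1.44% of all tested genes that fell and 0.244% that rose. An unadjusted p under 0.05 was reached by 8 channel genes (16.3%), against 18.5% of all. The smallest p-values were those of KCNH7, at -17.8 ± 4.65 percentage points (limma, adjusted p = 0.0626), KCND2 at -21.0 ± 5.63 (adjusted p = 0.0688) and KCNJ3 at -23.1 ± 6.76 (adjusted p = 0.0904). The combo libraries did not overlap the controls for KCND2 and KCNT2, against 8.06% of all tested genes. All 3 genes share their control libraries with the EPZ comparison. With covered length as a covariate 3 channel genes fell in combo (KCND2, KCNH7 and KCNK2) and 3 rose (KCNK5, KCNK9 and KCNQ3), against 224 that fell and 133 that rose of all 4105 genes. Without control replicate 4, the lowest control library for each of them, 4 channel genes fell (KCND2, KCNH7, KCNJ3 and KCNT2), as did 239 of all 4105 genes, against 59 with that library. Without control replicate 1, the highest control library for it, KCNK5 rose by 32.9 ± 6.61 (limma, adjusted p = 0.0357), as did 17 of all genes.

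The p38 inhibitor alone changed no channel gene past the threshold, and 1 (2.04%) had an unadjusted p under 0.05, against 10.1% of all tested genes. Of all tested genes 0.292% rose and none fell. The 4 P38i libraries did not overlap the 4 controls for KCNQ1 alone, against 3.41% of all tested genes. The median difference was 3.29 percentage points for channel genes and 2.90 for all genes. KCNH2 had the smallest p, with 17.2% ± 4.71 in P38i and 8.36% ± 4.54 in control (SD, n = 4), a difference of 8.89 ± 2.68 (SE, limma, adjusted p = 0.247). KCNK12, the two-pore channel THIK-2, was at 10.8% ± 3.36 and 5.72% ± 3.76 (adjusted p = 0.504). KCNJ6, which encodes Kir3.2, was at 68.8% ± 5.16 and 56.8% ± 13.7 (SD, n = 4).

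As a main effect over 8 libraries a side, the p38 inhibitor again changed no channel gene (0.122% of all tested genes rose and none fell). An unadjusted p under 0.05 was reached by 7 channel genes (14.3%), against 13.3% of all. KCNH2 was at 12.7% ± 5.88 with and 4.31% ± 5.26 without it (SD, n = 8), and the difference of 8.42 ± 1.89 (SE, limma) had an adjusted p of 0.115. Both inhibitors therefore had estimates of similar size and opposite sign on this gene, of which that for the EZH2 inhibitor passed the test. KCNS3, a silent subunit that alters Kv2 channels, was at 22.2% ± 8.76 and 11.6% ± 6.71, a difference of 10.6 ± 3.71 (adjusted p = 0.240). KCNA5, the Kv1.5 channel of atrium and vessels, was at 0, 15.4, 12.9 and 0% in control, 11.2, 0, 0 and 0% in EPZ, 7.86, 44.1, 41.6 and 0% in P38i and 20.5, 0, 28.1 and 46.9% in combo. Libraries at 0 occurred in every group, and the difference of 18.7 ± 7.29 had an adjusted p of 0.298 (limma).

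The interaction asked whether the effect of the EZH2 inhibitor differed in the presence of the p38 inhibitor. No channel gene passed and none had an unadjusted p under 0.05, while 0.0487% of all tested genes fell and 141 of 4105 had an unadjusted p under 0.05. The 3 smallest p-values belonged to KCNK12 at -7.30 ± 3.44 percentage points, KCNA1 at -29.5 ± 14.9 and KCNK15 at 37.9 ± 23.9 (SE, limma, adjusted p = 1 for each). KCNK15, which encodes TASK-5, varied widely within groups: it was at 84.3, 33.3, 0 and 23.0% in control, 0, 0, 33.6 and 3.61% in EPZ, 17.8, 63.3, 65.1 and 38.9% in P38i and 57.8, 22.8, 77.3 and 75.5% in combo.

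The share of channel genes at least 50% covered was 31.8% ± 3.97 in control, 29.7% ± 3.48 in EPZ, 35.0% ± 1.80 in P38i and 33.2% ± 1.82 in combo (SD, n = 4), against 11.0, 9.50, 12.0 and 10.5% of all genes. Single libraries ranged from 27.4 to 36.8% in control, 26.3 to 33.7% in EPZ, 32.6 to 36.8% in P38i and 30.5 to 34.7% in combo. Every pair of groups overlapped, and no test was made of these shares.

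Of 11 channel genes much studied in breast cancer cells, 10 were tested, 4 were at least 50% covered (KCNA3, KCNK5, KCNN3 and KCNK9) and KCNN4 had no island. With the EZH2 inhibitor as a main effect 2 of them fell (KCNH2 and KCNJ3). The list had 2 fallers among 10 tested, against 15.6% of all genes. KCNN3 had an estimate of -8.15 ± 3.57 percentage points (limma, adjusted p = 0.130), and KCNMA1, KCNQ1, KCNH1 and KCNA3 had estimates between -2.42 and 0.770.

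Of 10 genes for partner proteins of potassium channels, 5 were tested and LRRC38 rose with the EZH2 inhibitor as a main effect. Of all tested genes 0.877% rose in that comparison. LRRC38 is a gamma subunit that shifts the voltage range of BK channels. It was at 39.0% ± 8.48 with and 13.3% ± 8.80 without the EZH2 inhibitor (SD, n = 8), a difference of 25.7 ± 3.86 (SE, limma, adjusted p = 0.00194). LRRC38 also rose in EPZ alone by 26.9 ± 5.45 (limma, adjusted p = 0.0253) and in combo by 35.2 ± 5.45 (limma, adjusted p = 0.0131). Of all tested genes 0.122% rose in EPZ and 0.244% in combo. Of 23 other voltage-gated cation channels, 15 were tested and 4 fell with the EZH2 inhibitor: the sodium channels SCN3A at -28.0 ± 7.38, SCN2A at -26.0 ± 4.28, SCN1A at -23.6 ± 4.30 and SCN9A at -17.8 ± 3.08 (SE, limma, adjusted p between 0.00243 and 0.0203). These 4 lie in 1 cluster on chromosome 2 and are not separate observations, and 15.6% of all tested genes fell. In EPZ alone SCN2A and SCN9A fell, where 3.05% of all tested genes fell. In combo SCN9A fell, where 1.44% of all tested genes fell.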

How the data were processed

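The 16 H3K27me3 libraries were put into 4 groups of 4 by the treatment label. Per the submitters' processing notes, islands are on build hg38 and the tools were SICER, Bowtie2 2.3.4.1, SAMtools 1.2, bedtools 2.28.0, Picard, Trim Galore, cutadapt and FastQC. The settings of SICER and the order of steps were not given in the sources used here. The deposited lists hold the start and end of each island, with no other unit, score or depth; in the files, the shortest island is 200 bp and the smallest gap 800 bp.

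From these, the percent of each of 19974 RefSeq protein-coding genes and 2.5 kb flanks in islands was computed (Python 3.11.15, pandas 2.3.3) and checked against bedtools 2.31.1. Genes with mean coverage of 5 to 95% (4105, of which 49 are potassium channel genes) were fitted with limma 3.58.1 (R 4.3.3), with trend and robust options, in 1 model of 16 libraries, with Benjamini-Hochberg adjustment over all tested genes within each of 6 contrasts and a threshold of 0.05. Every adjusted p-value is from limma, in this model or in the alternative named beside it. The fit was also run on simulated data with independent noise for each gene and library. Those data held no difference in covered length between libraries beyond that noise and the planted changes, so they cannot show how the fit behaves under one. The interaction is combo minus EPZ minus P38i plus control. The gene start was taken as the upstream end of the gene span, on the strand given in the RefSeq promoter table (71 of 95 genes).

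The members, classes and gene lists were chosen with earlier results of these data known. Genes named are those past the threshold, or the 3 with the smallest p where none passed; the 4 most covered of each class; 11 channel genes studied in breast cancer; partner and other cation channel genes past the threshold, up to 4 a contrast; members within 200 kb of each other; and those said to be chosen later. Alternatives were an arcsine scale, other flanks and filters, islands of at least 1 kb, the gene start window, covered length as a covariate, a replicate block, fits of 2 groups, other thresholds of coverage and leaving out each library.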

Additional observations from a re-analysis of the deposited data

Results flagged for a closer look

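Of 68 groups of 4 libraries checked in 17 channel genes, 9 had 1 library far from the other 3 (a gap to the nearest above Dixon's critical value at 95%). Chance flags about 5% of groups. KCND2 in control replicate 4 was covered over 73.1%, where the others were at 86.7 to 88.6%, and KCNK12 in the same library over 0.127%, against 7.02 to 8.22%. KCNJ3 in EPZ replicate 4 was at 27.7%, against 14.3 to 15.5%, and in P38i replicate 1 at 27.6%, against 37.0 to 37.9%. KCNQ3 was at 84.1% in EPZ replicate 3, against 68.2 to 70.2%, and at 80.3% in P38i replicate 3, against 70.6 to 72.2%. KCNK15 was at 33.6% in EPZ replicate 3, against 0 to 3.61%. In EPZ replicate 1, KCNH2 was at 1.10% and KCNA5 at 11.2%, where the other 3 EPZ libraries had no island on either gene. With the other 3 libraries at 0, any value above 0 meets this rule, so these 2 of the 9 say only that 1 library had an island there. The causes were not tested.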

How the results depend on the processing

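For EPZ against control, the count of channel genes called, 1, became 2 on the arcsine scale and 2 with a filter of 10 to 90%. It became 0 in the fit of the 2 groups, with a replicate block or at the gene start. Of all tested genes, 3.02, 4.72, 0.588, 1.95 and 0.0388% fell in these settings, in that order, against 3.05% in the main fit. Leaving out 1 library gave 0 to 5 (5 without control replicate 4, where the genes of any kind that fell went from 125 to 410). For the EZH2 inhibitor main effect, 7 calls became 0 at the gene start, where 29 channel genes were tested. Only 1.63% of all genes tested there fell, against 15.6% in the main fit, so 0 of 29 was near the background. Leaving out 1 library gave 6 to 8 calls, while 390 to 893 of all tested genes fell. Without control replicate 1, 6 fell and KCNK5 rose by 14.8 (limma, adjusted p = 0.0477). With covered length as a covariate the 7 that fell became 3 that fell and 2 that rose, while KCNJ3, KCNT2, KCNK2 and KCNB2 had differences of -15.4, -7.42, -7.14 and -8.30 percentage points and adjusted p of 0.0698, 0.0850, 0.0671 and 0.0601. Among all genes, that covariate changed 642 that fell and 36 that rose to 260 and 127. For combo, 0 calls became 6 with the covariate (3 fell, 3 rose, where all genes went from 59 and 10 to 224 and 133) and 0 to 4 when 1 library was left out. For the p38 main effect, leaving out 1 library gave 0 to 1 (KCNH2, adjusted p = 0.0499 without control replicate 1, where 32 of all genes rose); for P38i alone and the interaction, every alternative run gave 0. At the gene start, the KCNJ6 difference for P38i was -2.22 and the KCND2 difference for combo 9.00, both of the opposite sign. The causes were not tested.

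The share of channel genes called covered depends on the threshold: at 25% it was 41.1, 38.4, 43.7 and 42.1% in control, EPZ, P38i and combo, and at 75% it was 18.7, 16.1, 21.3 and 18.7%. Leaving out 1 library gave 30.2 to 33.3, 28.4 to 30.9, 34.4 to 35.8 and 32.6 to 34.0%. Same-numbered libraries of different groups had correlations of their deviations from the group means of -0.151 to 0.178 (24 pairs). For different numbers the range was -0.204 to 0.163 (72 pairs), and 3 of 16 libraries correlated best with their own number. With the replicate block, 6 channel genes were called for the EZH2 inhibitor (KCNB2 at a limma adjusted p of 0.0543) and 0 in each other comparison. In that fit 13.5% of all tested genes fell with the EZH2 inhibitor. Read depth is unknown, so a gene with no island may lie below what could be called.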
